A study of Mus musculus with 6 samples.

Results

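The mouse heart carries 3 microRNA (miRNA) genes inside genes for myosin heavy chains: Mir208a inside Myh6, Mir208b inside Myh7 and Mir499 inside Myh7b. Each gives a hairpin RNA that is cut into a 5′ arm and a 3′ arm, so the family has 6 mature miRNAs, mmu-miR-208a-3p, mmu-miR-208a-5p, mmu-miR-208b-3p, mmu-miR-208b-5p, mmu-miR-499-5p and mmu-miR-499-3p, chosen by name out of the 1881 mouse miRNAs on the arrays. All 6 were on the arrays, with 2 probes each and 15 spots per probe. They were measured in left ventricle tissue from male C57BL/6 mice given sunitinib, a tyrosine kinase inhibitor used against cancer, or vehicle as control, as the series' design text states. There were 3 samples per group. Each sample was labelled with Cy3 and hybridised alone to an Agilent miRNA array. The labels give no dose, length of treatment or age, and do not say what the vehicle was. They also do not tie every sample to a separate mouse, and the p-values below then reflect only how far these samples spread, which may be partly technical.

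A miRNA guides a protein complex to messenger RNAs that pair with its seed, bases 2 to 8 from its 5′ end, and those messages are repressed. Myh6 encodes the fast alpha-myosin that dominates in the adult mouse ventricle, and Myh7 encodes the slow beta-myosin that dominates before birth and returns in the stressed or hypertrophic heart. Myh7b is a related myosin gene. miR-208a is known to be needed for Myh7 to be induced under stress or hypothyroidism in mice. miR-208b and miR-499 are known to act on repressors of slow-fibre genes in skeletal muscle. Because miR-208b is made from the Myh7 transcript, it is often read alongside that gene.

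The sequences are shown first because the seeds define which members can share targets, and because miR-208a and miR-208b are so alike that their probes must tell them apart. In the mature sequences from RefSeq (GRCm38.p6), capitals mark the seed.
miR-208a-3p: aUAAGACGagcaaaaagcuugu
miR-208b-3p: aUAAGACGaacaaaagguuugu
miR-499-5p: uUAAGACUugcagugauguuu
miR-208a-5p: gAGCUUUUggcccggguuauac
miR-208b-5p: aAGCUUUUugcucgcguuaugu
miR-499-3p: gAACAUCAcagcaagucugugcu
miR-208a-3p and miR-208b-3p had the same seed, and among 1679 mouse mature miRNAs in the RefSeq table these 2 were the only ones with it. miR-499-5p differed from them at the last base of the seed, and it shared bases 2 to 7 with both, a core held by these 3 miRNAs alone in that table. The 5p arms of miR-208a and miR-208b shared a different seed, which miR-6415 also had.

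The hairpins are shown to place the arms, with both mature arms in capitals. Mir208a lies on chromosome 14 from 54949060 to 54949142 on the minus strand (GRCm38.p6), within Myh6. Mir208b lies on chromosome 14 from 54975700 to 54975776 on the minus strand, within Myh7. Mir499 lies on chromosome 2 from 155622880 to 155622958 on the plus strand, within Myh7b.
Mir208a: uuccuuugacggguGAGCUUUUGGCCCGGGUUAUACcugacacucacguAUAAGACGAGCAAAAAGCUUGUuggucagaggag
Mir208b: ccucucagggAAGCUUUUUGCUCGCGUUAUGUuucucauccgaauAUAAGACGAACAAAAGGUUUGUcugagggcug
Mir499: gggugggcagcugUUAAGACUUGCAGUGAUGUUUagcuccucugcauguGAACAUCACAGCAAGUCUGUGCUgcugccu
The arm with the UAAGAC core is the 3p arm in the hairpins of miR-208a and miR-208b and the 5p arm in that of miR-499.

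Along the full 22 bases, miR-208a-3p and miR-208b-3p were identical at 19 and differed at 3, namely G10A, A16G and C18U, with the base of miR-208a-3p first and positions counted from the 5′ end. The DNA probes for both miRNAs cover all of these 3 positions. In the brighter probe of each, written 5′ to 3′, capitals mark the bases opposite the differences.
probe for miR-208a-3p: acaaGcTttttgCtcgtct
probe for miR-208b-3p: acaaAcCttttgTtcgtctt
Each probe therefore met the other miRNA with 3 mismatches, and no other mature miRNA of the table came as close to either. How much of the other miRNA each probe binds under these conditions was not measured.

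The arms differed in whether they were measured at all. A spot was called well above background where it exceeded its background by 13 times the background SD, as the scanner software marks it, and a probe where at least 50% of its spots did. By its brighter probe, miR-208b-3p, miR-208a-3p, miR-208a-5p and miR-499-5p were well above background on 6 of 6 arrays. miR-208b-5p and miR-499-3p had no spot well above background on any array with either probe. Probe means on the log2 scale of scaled intensity ran from 0 to 0.32 for miR-208b-5p and from 0.26 to 0.86 for miR-499-3p, where 0 is the floor set in processing, so neither has a level here. Levels of different miRNAs are not set against each other, since each probe binds with its own strength.

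miR-208b-3p, the Myh7-derived member, varied far more from array to array than the other 3 tested members. Its scaled intensity on the log2 scale was 4.88, 5.71 and 4.49 in the control arrays 1 to 3. In the sunitinib arrays 1 to 3 it was 7.05, 5.22 and 6.57. Sunitinib replicates 1 and 3 lay above every control array, whereas sunitinib replicate 2 lay below control replicate 2, so the groups overlapped. Its highest and lowest arrays were 5.90-fold apart. The control mean was 5.03 ± 0.62 (SD, n = 3). The sunitinib mean was 6.28 ± 0.95 (SD, n = 3).

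**Figure D1:**
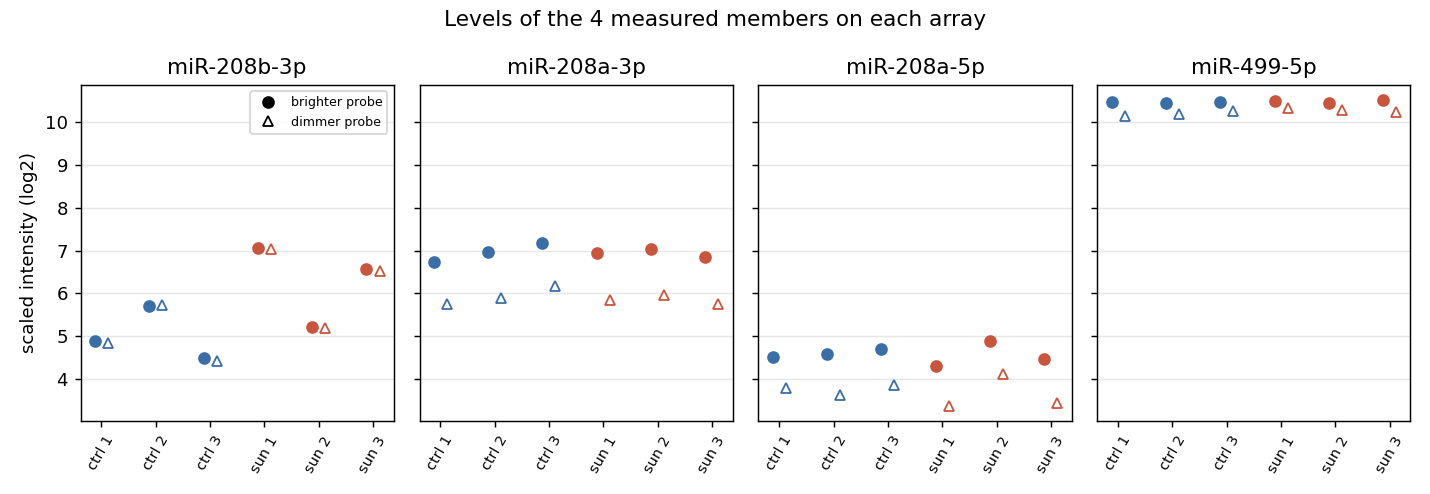
Scaled intensity on the log2 scale (y axis) of the 4 members that were well above background, on each of 3 control arrays (blue) and 3 sunitinib arrays (red), with a filled circle for the brighter probe and an open triangle for the dimmer one. miR-208b-3p ranged from 4.49 to 7.05 with its brighter probe, while miR-499-5p stayed between 10.46 and 10.52.

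The mean log2 difference of miR-208b-3p, sunitinib minus control, was 1.25 (SE 0.53), which is 2.38-fold, with a 95% interval from -0.02 to 2.53. It did not pass the test (limma adjusted p = 0.263 over 237 tested miRNAs). None of the 4 tested members passed, where 8 of the 237 miRNAs, 3.38%, did: 4 higher (1.69%) and 4 lower (1.69%). At an unadjusted p under 0.05 also, none of the 4 members was called, where 45 of all tested miRNAs, 19%, were. Sunitinib replicate 2 decided the call. Without it the log2 difference was 1.81 and passed (limma adjusted p = 0.0490). Leaving out any other array gave 0.89 to 1.59 and did not pass. Calls also became more frequent in general without sunitinib replicate 2. Of 242 miRNAs tested there, 12 were higher and 5 lower, against 4 and 4 of 237 with all arrays. Leaving out any other array gave 0 to 5 higher and 2 or 3 lower. Passing without sunitinib replicate 2 was therefore not particular to miR-208b-3p. Among all tested miRNAs the size of the log2 difference of miR-208b-3p ranked 4, but its unadjusted p ranked 47.

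The differences between arrays in miR-208b-3p were much larger than the error of measurement within an array. With 14 or 15 spots used per array, the SD between spots of the brighter probe was 0.08 to 0.28 on the log2 scale, and the standard error of an array's mean was at most 0.07. The dimmer probe gave 4.85, 5.72 and 4.43 in control and 7.04, 5.20 and 6.54 in sunitinib, so the probes differed by 0.0099 to 0.06 on any array. Its log2 difference between groups was 1.26, against 1.25 for the brighter probe. The order of the 6 arrays was the same with both probes. The probes overlap in sequence and read the same labelled RNA, so they are a check of the spots and not of the samples.

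**Figure D2:**
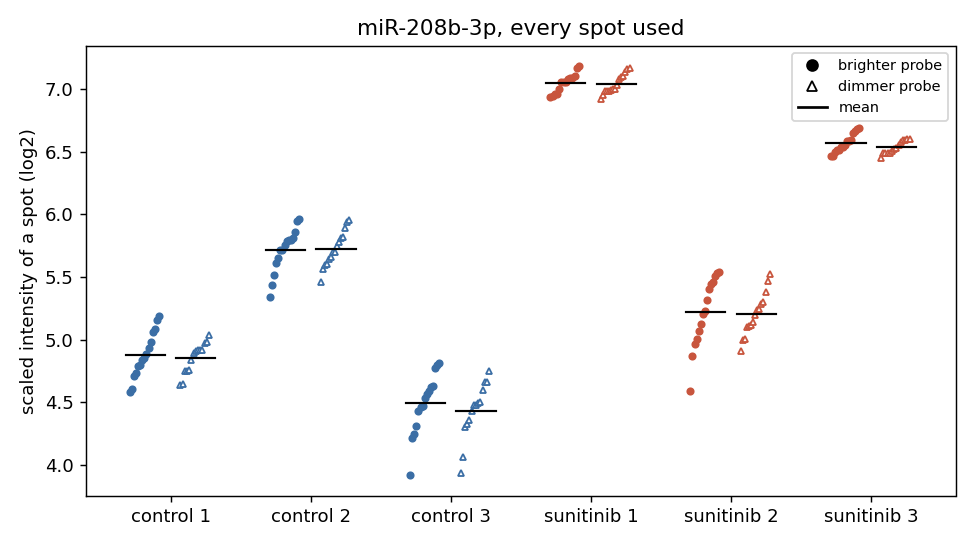
Scaled intensity on the log2 scale (y axis) of every spot used for miR-208b-3p, by array (x axis), with circles for the brighter probe, triangles for the dimmer probe and black lines for the means. Spots of sunitinib replicates 1 and 3 gather around 7.05 and 6.57, apart from all spots of the other 4 arrays.

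The authors' deposited value table put the arrays in the same order for miR-208b-3p, where the control arrays had log2 values of 4.96, 5.72 and 4.53 and the sunitinib arrays 6.99, 5.16 and 6.55. The log2 difference between groups in the deposited table was 1.17.

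Against the background of all tested miRNAs, the spread of miR-208b-3p within groups stood out. Its within-group SD of 0.80 on the log2 scale ranked 3 of 237, where the median was 0.11 and 90% of miRNAs were below 0.28. Only miR-5110, at 2.01, and miR-5119, at 1.14, had more. Those were each well above background on 4 of 6 arrays, while miR-208b-3p was on all 6. miR-499-5p was at the opposite end, with a within-group SD of 0.02 that ranked 235 of 237. miR-208a-3p, at 0.17, ranked 73, and miR-208a-5p, at 0.22, ranked 47.

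**Figure D3:**
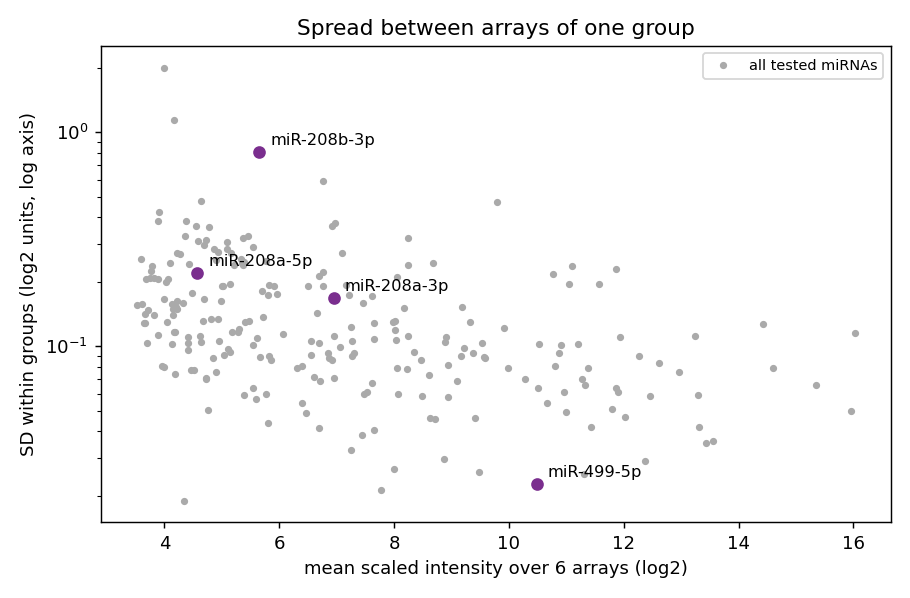
SD within groups on the log2 scale (y axis, log axis) against the mean level (x axis) of each of the 237 tested miRNAs in grey, with the 4 members in purple. miR-208b-3p lies near the top at 0.80 and miR-499-5p near the bottom at 0.02, while the arms of miR-208a lie among the other miRNAs.

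miR-208a-3p, made from the transcript of the adult myosin Myh6, was at 6.74, 6.96 and 7.18 in control and 6.95, 7.05 and 6.85 in sunitinib on the log2 scale. All 3 sunitinib values lay within the range of the controls. The log2 difference was -0.01 (SE 0.12, limma adjusted p = 0.972), with a 95% interval from -0.30 to 0.28, that is, -19.0% to 21.7%. The dimmer probe, about 1 log2 unit below at 5.75 to 6.17, gave -0.09. These samples do not exclude a change within that interval, in either direction.

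miR-208a-5p, the other arm of the same hairpin, was at 4.51, 4.57 and 4.69 in control and 4.31, 4.89 and 4.47 in sunitinib. Sunitinib replicate 2 was above and the other sunitinib arrays below all controls, so the groups overlapped. The log2 difference was -0.04 (SE 0.15, limma adjusted p = 0.888), with a 95% interval from -0.40 to 0.33. The second probe was clear of background on 4 of 6 arrays, all 3 control and 1 sunitinib, and gave -0.11. The probes of this arm are short, with 15 and 14 bases, and have a GC content of 60% and 64.3%, against 42.1% for the brighter probe of the 3p arm. The array annotation leaves both of them unmapped, unlike the probes of the other members. Across the 6 arrays the arms of miR-208a had a Pearson correlation of 0.55 and a Spearman correlation of 0.71, which is a description of 6 points that share their arrays and scaling.

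miR-499-5p, the guide arm of the Myh7b-derived hairpin, was almost level. It was at 10.49, 10.46 and 10.48 in control and 10.50, 10.46 and 10.52 in sunitinib on the log2 scale. The whole range over the 6 arrays was 0.06, the narrowest of the 237 tested miRNAs by their brighter probes. For this probe the standard error of an array's mean over its spots ran from 0.02 in sunitinib replicate 3 to 0.06 in control replicate 3. The range was therefore about as wide as the largest of these errors, and wider than the smallest. The log2 difference was 0.02 (SE 0.05, limma adjusted p = 0.882). Its 95% interval ran from -0.11 to 0.15, a lower limit of -7.59%. This interval leans on the spread that limma shares between miRNAs, since the SD of miR-499-5p itself was 0.01 in control and 0.03 in sunitinib. Its second probe ranged more widely, from 10.16 to 10.35, and gave a log2 difference of 0.08.

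The members were next compared with each other. The log2 difference between 2 members was taken within each array and compared between groups, over the 6 pairs of tested members. miR-208b-3p minus miR-208a-3p was -1.87, -1.25 and -2.69 in control and 0.11, -1.83 and -0.28 in sunitinib. Only sunitinib replicates 1 and 3 lay above every control. The group difference was 1.26 (exact two-sided permutation p = 0.2, adjusted p = 0.6 over the 6 pairs). With 3 samples per group an exact p cannot go below 0.1, so no pair could have passed.

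Against miR-499-5p, miR-208b-3p differed between groups by 1.23 (exact two-sided permutation p = 0.2, adjusted p = 0.6). Against miR-208a-5p it differed by 1.29 (exact two-sided permutation p = 0.3, adjusted p = 0.6). For the remaining 3 pairs, all without miR-208b-3p, the group differences ran from -0.05 to 0.03 (exact permutation p from 0.8 to 1). Across arrays the Pearson correlation of miR-208b-3p was -0.32 with miR-208a-3p, -0.70 with miR-208a-5p and 0.63 with miR-499-5p, described here over 6 points only.

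Among other muscle miRNAs, the bright members of the miR-1 and miR-133 families, which are made in heart and skeletal muscle, differed little between arrays. Of 11 listed, 4 were tested, and 7 were not well above background on any array. None of the 4 passed. Their log2 differences were 0.06 for miR-1a-3p, 0.11 for miR-133a-3p, 0.13 for miR-133a-5p and 0.07 for miR-133b-3p, of which the first turned to -0.08 with its second probe and the first and the second fell below 0 in the deposited table. Their median was 0.09, against 0.02 over all 237 tested miRNAs. miR-133a-5p was at 10.57, 10.57 and 10.68 in control and 10.76, 10.68 and 10.76 in sunitinib on the log2 scale. Its groups did not overlap, though the highest control and the lowest sunitinib array agree as rounded here, and it had a limma adjusted p of 0.331. Groups did not overlap for 27.4% of all tested miRNAs, and for none of the 4 tested members of the myosin-gene family. miR-206-3p, typical of skeletal muscle, was well above background on 0 of 6 arrays.

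Of 18 listed miRNAs of cardiac remodelling, all were tested, 1 rose and 17 did not pass, with a median log2 difference of 0.04. Over all 237 tested miRNAs 1.69% were called higher, so 1 of 18 shows nothing particular to the list. The member that rose was miR-210-3p, induced by low oxygen, with a log2 difference of 0.37 (SE 0.06, limma adjusted p = 0.0369). That call held in 5 of 20 alternatives, with log2 differences from 0.23 to 0.40 over all 20. Of the 6 that leave out an array it held only without sunitinib replicate 2. miR-29a-3p, which represses collagen genes, had 0.26 (limma adjusted p = 0.211). miR-212-3p had -0.45 (limma adjusted p = 0.246), and -0.60 without sunitinib replicate 2, where it passed (limma adjusted p = 0.0400). miR-30a-5p had 0.14 (limma adjusted p = 0.263).

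**Figure D4:**
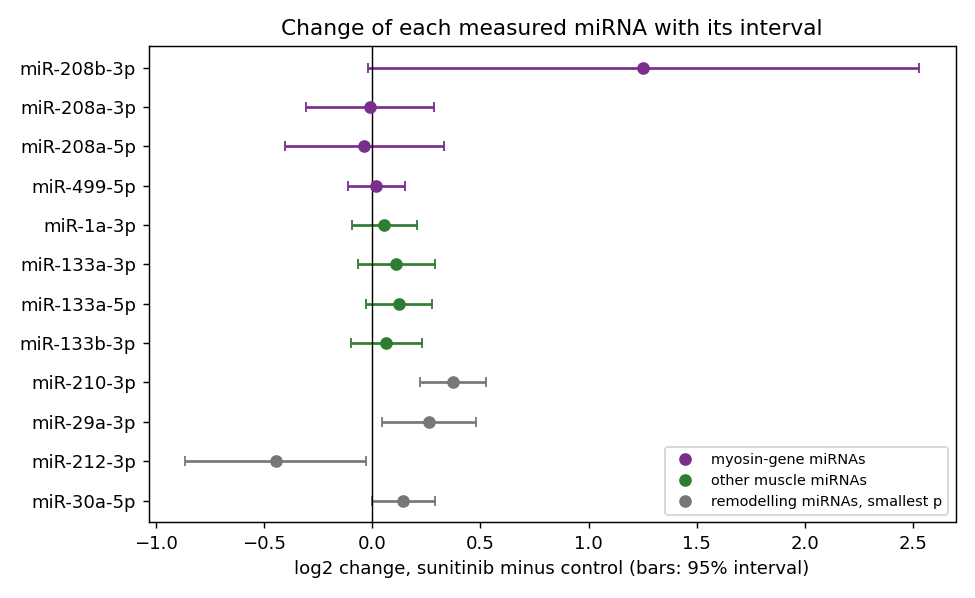
Log2 difference, sunitinib minus control (x axis), with its 95% interval for the 4 tested members (purple), the 4 other tested muscle miRNAs (green) and the 4 remodelling miRNAs with the smallest unadjusted p (grey). miR-208b-3p sits at 1.25 with an interval from -0.02 to 2.53, and miR-499-5p at 0.02 with the narrowest interval.

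By the Pearson correlation over the 6 arrays, the pattern of miR-208b-3p was most like those of miR-26a-5p (0.97), miR-30e-3p (0.96) and miR-322-5p (0.94), out of the other 236 tested miRNAs. These moved far less, with ranges of 0.36, 0.24 and 0.35 on the log2 scale against 2.56 for miR-208b-3p. miR-208a-3p was most like miR-30e-5p (0.93), miR-8102 (0.91) and miR-378b (0.88). miR-208a-5p was most like miR-2137 (0.99), miR-3072-5p (0.99) and miR-1904 (0.97), whose probes have a GC content of 69.2% to 76.9%. miR-499-5p was most like miR-150-5p (0.92), miR-125b-5p (0.87) and miR-30c-5p (0.82). With 6 points and 236 candidates such values are a description only, and the arrays share their scaling.

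The tissue label was checked against marker miRNAs of cell types. All 4 heart muscle markers, miR-208a-3p and miR-499-5p among them, were well above background on all arrays, and all 5 liver, brain and epithelial markers on none. Of 4 listed myeloid markers, 2 were well above background on all arrays, and both fell (limma), miR-223-3p by a log2 difference of -1.32 and miR-142a-3p by -0.64. The call held in 20 of 20 alternatives for miR-223-3p and in 11 of 20 for miR-142a-3p, which did not pass without control replicate 1, 2 or 3. The mean log2 level of this pair was 7.52 to 7.71 in control and 6.57 to 6.70 in sunitinib. Only the 3 control arrays measured miR-511-3p well above background and no sunitinib array did, so it was tested only through its control level and is not counted here. The remaining marker, miR-142a-5p, was not well above background on any array. None of 3 lymphoid, 4 erythroid, 4 endothelial and 5 fibroblast and mural markers passed, where 3.38% of all tested miRNAs did. In tissue samples such as these, fewer cells of a type and less RNA per cell cannot be told apart. The part of cell makeup in the spread of miR-208b-3p was not tested.

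The 6 arrays shared 1 slide and had 0 saturated spots. They had 234 to 252 miRNAs well above background. Slide row 2 held the 3 control arrays and sunitinib replicate 3, and row 1 held sunitinib replicates 1 and 2. Within row 2 the log2 difference was 1.54 for miR-208b-3p, -0.11 for miR-208a-3p, -0.13 for miR-208a-5p and 0.05 for miR-499-5p. With the row as a block miR-208b-3p was at the same 1.54 by construction, since row 1 held no control array to compare with. The brightness of an array before scaling differed from the mean by 0.14, 0.06 and -0.22 log2 units on the control arrays. On the sunitinib arrays it differed by 0.17, -0.14 and -0.02. Brightness and miR-208b-3p did not give the same order: sunitinib replicate 1 was highest and control replicate 3 lowest in both, but control replicate 1 was brighter than sunitinib replicate 3 and lower in miR-208b-3p. The part of brightness in the values of miR-208b-3p was not tested.

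**Figure D5:**
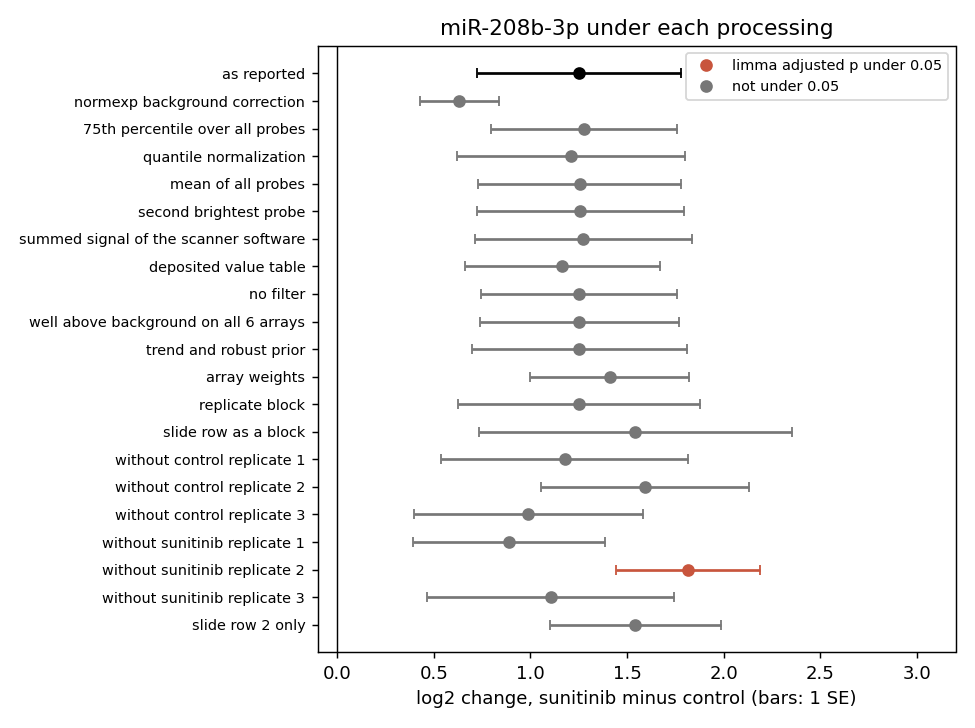
Log2 difference of miR-208b-3p, sunitinib minus control (x axis, bars of 1 SE), as reported (black) and under 20 alternatives (grey, or red where the limma adjusted p was under 0.05). All values lie above 0, from 0.63 with normexp background correction to 1.81 without sunitinib replicate 2, the only red point.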

How the data were processed

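The deposited scanner files hold spot intensity on a linear scale, background-subtracted and detrended across the array by Agilent Feature Extraction, version 10.7 per the submitters' processing notes and 10.7.1.1 per the file headers, which give build mm9 for the array design. The deposited value table holds log2 values as processed by the authors. How it was scaled and centred stays unknown. Its column medians ran from 2.195 to 2.200, each column's deviations matched those of its own array best, and it served as an alternative.

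Flagged and control spots were left out. Each array was scaled to a common 75th percentile of log2 intensity, taken over 393 probes that every array measured well above background. Scaled values under a floor of 1 were set to it, and spots were averaged as log2 values. The brightest probe stood for its miRNA. The 237 miRNAs that a whole group of 3 arrays measured well above background were tested in R 4.3.3 by limma 3.58.1 (lmFit, eBayes). P-values were adjusted by Benjamini-Hochberg, with a threshold of 0.05. The code of the test was also run on simulated data, which does not bear on whether any call here is right. The number of arrays limits the precision.

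Pairs of members were compared by exact permutation tests. Members and lists were chosen with earlier results of these data known. Named were the 6 members, tested muscle miRNAs, the 4 remodelling miRNAs with the smallest unadjusted p and the 3 miRNAs most correlated with each member, and the listed cell type markers. Other miRNAs are named because of their values: miR-5110 and miR-5119 for their spread, miR-6415 for its seed.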

Additional observations from a re-analysis of the deposited data

How the results depend on the processing

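miR-208b-3p was above 0 in all 20 alternatives, from 0.63 to 1.81, and passed in 1, without sunitinib replicate 2 (0.89 to 1.81 without a single array, each time with scaling, probe choice and filter redone). The lowest, 0.63, came with normexp. That alternative started from the mean signal of each spot and its background median instead of the processed signal. It also added an offset of 50, which pulls dim miRNAs toward 0 by construction. The part of each step in the lower value was not tested. The other members never passed, and their signs are not settled: miR-208a-3p was at 0.0019 with normexp, 0.015 where all probes set the percentile and -0.12 to 0.10 without an array, miR-208a-5p at 0.014 with normexp and -0.17 to 0.11, and miR-499-5p at -0.030 in the deposited table. Among pairs of members, miR-208a-3p minus miR-208a-5p turned to -0.012 with normexp, -0.0073 with quantile normalization, -0.016 in the deposited table and -0.093 to 0.14 without an array. Without an array miR-208a-3p minus miR-499-5p ran from -0.14 to 0.080 and miR-208a-5p minus miR-499-5p from -0.24 to 0.068. Of all tested miRNAs, 4 were higher and 4 lower; normexp gave 2 and 2, the summed signal 1 and 1, a slide row block 0 and 1, quantile normalization or no filter 0 higher, averaging the probes or weighting the arrays 7 lower, 1 higher in slide row 2 alone (added after seeing the data), and 0 to 12 and 2 to 5 without an array; the cause was not tested. Among other miRNAs (alternatives added after seeing the data), miR-1a-3p turned to -0.013 with the mean of its probes, -0.082 with the second and -0.021 in the deposited table, and miR-133a-3p to -0.0089 there. The labels state no pairing by replicate number. Deviations from the group means had correlations of 0.18, 0.22 and -0.06 between arrays of the same number, which do not settle whether samples were paired. With the numbers as a replicate block miR-208b-3p was at 1.25 (limma adjusted p = 0.389) and 0 miRNAs were higher and 2 lower.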
